A study of Mus musculus with 48 samples.

Results

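Gene expression levels in the cortical bone of old mice are described here from 3 libraries, the only ones in their deposited table whose title carries 18m and pizhigu, the Chinese word for cortical bone in Latin letters. They are 3 of the 48 samples of the series, and all 55335 gene rows of the table were used. The series profiled mouse bone and osteocyte-like cells for changes with age or under mitochondrial stress. The 3 libraries come from femur and tibia of C57BL/6J mice, labelled wild type and without treatment. Their age, 18 months, is carried by the title alone, and no label names the animals. Cortical bone was cut into pieces, which were rinsed in culture medium and spun 3 times. As worded, the protocol counts nonosseous tissue and marrow among what was harvested. RNA was selected with oligo(dT) beads. Whether the libraries come from separate mice is not stated, so the spread between them may be technical. The table holds no other group, and no level is compared here with another table.

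Cortical bone is the dense outer shell of the long bones. Osteoblasts on its surfaces secrete type I collagen and osteocalcin, and some of them become osteocytes, which sit in the mineral, remain linked by long processes and secrete regulators of bone formation and phosphate. Osteoclasts, large cells of the monocyte lineage, resorb bone. Marrow fills the space inside and makes red cells, neutrophils, platelets and B cells, and plasma cells also reside there. In bulk RNA, fewer cells of a type and less RNA per cell cannot be told apart.

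All values are FPKM, a level in which the fragments of a gene are divided by its length and by the library's depth. Groups of 3 values stand in the order of libraries 1, 2 and 3. A share is a gene's or list's part of the summed FPKM of its library, so it is a share of length-corrected level and not of reads. Summed FPKM ran from 816890 to 839628. Between 10396 and 10511 genes reached 1 FPKM in a library, 9082 reached it in all 3, and 24076 rows were at 0 in all 3. In each library 6 genes made up 50% of the sum. The number of fragments per library could not be recovered from the values, so no counting interval is given.

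Before the results, the 3 libraries have to be told apart, because libraries 1 and 3 resembled each other far more than either resembled library 2. Of 2886 genes with a mean of at least 10 FPKM, 22 (0.762%) differed over 2-fold between libraries 1 and 3 on the FPKM + 1 scale, against 126 (4.37%) between 1 and 2 and 113 (3.92%) between 2 and 3. The median absolute log2 difference was 0.14 between 1 and 3, 0.26 between 1 and 2 and 0.25 between 2 and 3. The files were not copies, since of the genes above 0 in both, 2 had equal values in libraries 1 and 3. Counting the highest against the lowest of the 3 libraries, 156 genes (5.41%) were spread over 2-fold, with library 2 highest in 109 (3.78%), lowest in 40 (1.39%) and between the others in 7 (0.243%). Of these 156 genes, 54 were immunoglobulin variable (V) genes, and V genes were 17 of the 20 most spread genes; the other 3 were Hist2h2aa1 (74.2, 4.51 and 141 FPKM) and the short genes Mir8114 (110.3, 0.115 and 121 FPKM) and Mir3091 (15.9, 1.05 and 18.1 FPKM). Over the 10414 genes with a mean of at least 1 FPKM, library 2 was the highest for 44.4% and the lowest for 31.6%, and its median log2 difference from the mean of libraries 1 and 3 was 0.06. At a mean of at least 10 FPKM, the median was -0.14 for library 1 minus 2 and 0.11 for library 2 minus 3. Library 2 therefore stood slightly high across the table, and list values below are read beside these figures. For the lists in which library 2 is said to differ, the share with libraries 1 and 3 averaged as 1 library is also given.

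**Figure D1:**
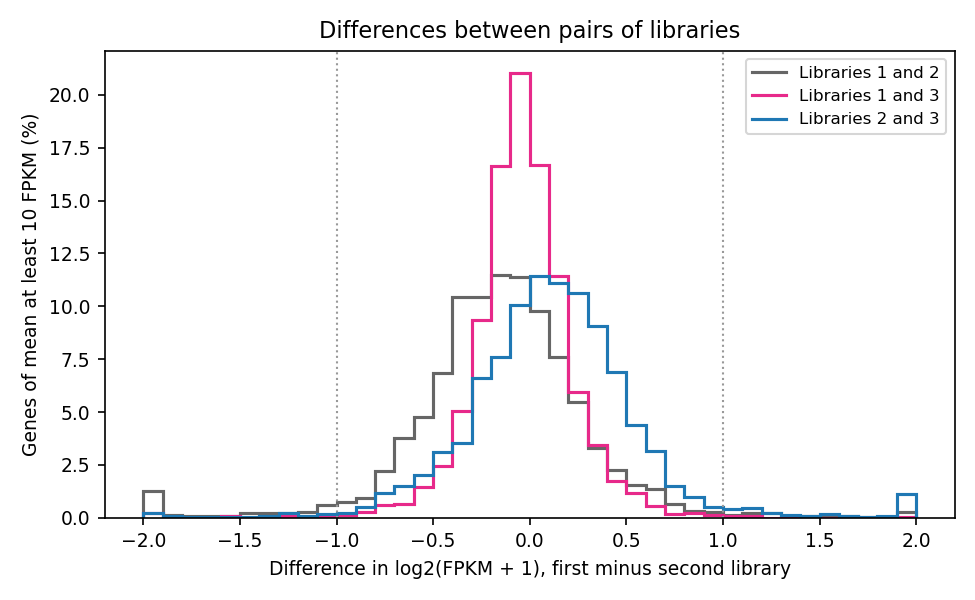
Differences in log2(FPKM + 1) between each pair of libraries for the 2886 genes with a mean of at least 10 FPKM, as the percentage of genes in each bin; values beyond the axis stand in the end bins, and dotted lines mark 2-fold. The distribution for libraries 1 and 3 is the narrowest, with 22 genes past 2-fold, against 126 and 113 for the pairs with library 2.

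The clearest marks of this split were the V genes of antibodies. Each B cell joins 1 heavy and 1 light chain V gene, which its plasma cell descendants keep. Unrelated clones can use the same V gene, so its level alone identifies neither a clone nor a chain pairing. Igkv4-50, a kappa light chain V gene, read 4849, 114 and 4685 FPKM, which was 40.2%, 0.797% and 39.8% of all kappa V FPKM. Ighv8-12, a heavy chain V gene, read 2197, 21.2 and 2365 FPKM, or 49.3%, 0.664% and 49.2% of all heavy V FPKM. Both led their class in libraries 1 and 3 and were minor in library 2. Others were high in library 2 alone, among them Igkv10-96 (83.1, 1088 and 72.9 FPKM), Ighv1-75 (4.95, 390 and 2.92 FPKM) and Ighv3-8 (1.63, 371 and 2.34 FPKM). High in all 3 libraries were Igkv3-4, with 3839, 6156 and 3494 FPKM, and Ighv1-81, with 1695, 1270 and 1837 FPKM. Igkv3-4 and Ighv1-81 held 29.7% to 43.0% of kappa V and 38.0% to 39.8% of heavy V FPKM. Of 59 kappa V genes with a mean of at least 10 FPKM, 38 were spread over 2-fold across the 3 libraries and 1 between libraries 1 and 3. For the heavy chain these counts were 15 of 30 and 1 of 30. Of all genes at that level, 5.41% were spread across the 3 libraries and 0.762% between libraries 1 and 3. Across the V genes of a class, which are not independent and share each library's depth, Pearson's r of log2 values was 0.98 (kappa) and 0.97 (heavy) between libraries 1 and 3, and from 0.78 to 0.88 in the pairs with library 2. Whether libraries 1 and 3 share an animal or tissue was not tested, as counts were not recovered.

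**Figure D2:**
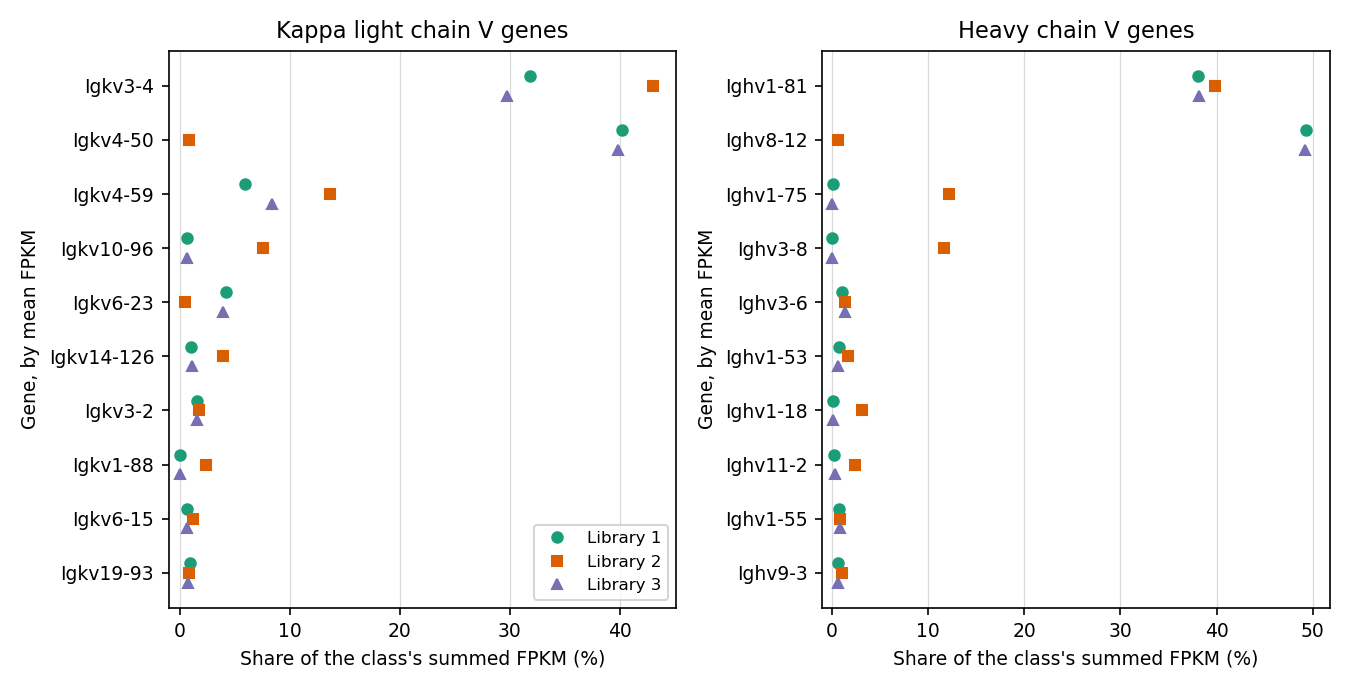
Share of each immunoglobulin V class held by its 10 highest genes in the 3 libraries, in percent of the class's summed FPKM, for kappa light chains (left) and heavy chains (right). Igkv4-50 and Ighv8-12 hold about the same share in libraries 1 and 3 (40.2% and 39.8%, 49.3% and 49.2%) and under 1% in library 2.

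Most of the expression level belonged to blood and marrow cells. The marker lists of the 9 blood and marrow cell types, 204 genes, held 62.6% ± 0.335 (SD, n = 3) of summed FPKM, and those of osteoblasts, osteocytes and osteoclasts, 69 genes, held 0.672% ± 0.105 (SD, n = 3). The erythroid list came first with 44.8% ± 0.878, followed by neutrophils with 13.2% ± 0.509 and the B lineage with 3.68% ± 0.150. Osteoblasts followed with 0.612% ± 0.123, close to monocytes and macrophages with 0.592% ± 0.0642, and megakaryocytes came next with 0.222% ± 0.0495. Osteoblasts and monocytes did not differ beyond their spread. The osteoblast list was above the monocyte list in libraries 1 and 3 and below it in library 2. Most of the monocyte and macrophage list was 1 gene, Lyz2. Without Lyz2 that list held 0.0533% ± 0.0127, below the megakaryocyte list. The osteocyte list held 0.0308% ± 0.0149 and the osteoclast list 0.0297% ± 0.00302, again within their spread. Lists differ in length and in how strongly their genes are transcribed, so their order is not one of cell numbers. Markers of the labelled bone (collagen, osteocalcin and osteocyte genes) were present, while the leading genes were those of red cells and neutrophils.

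**Figure D3:**
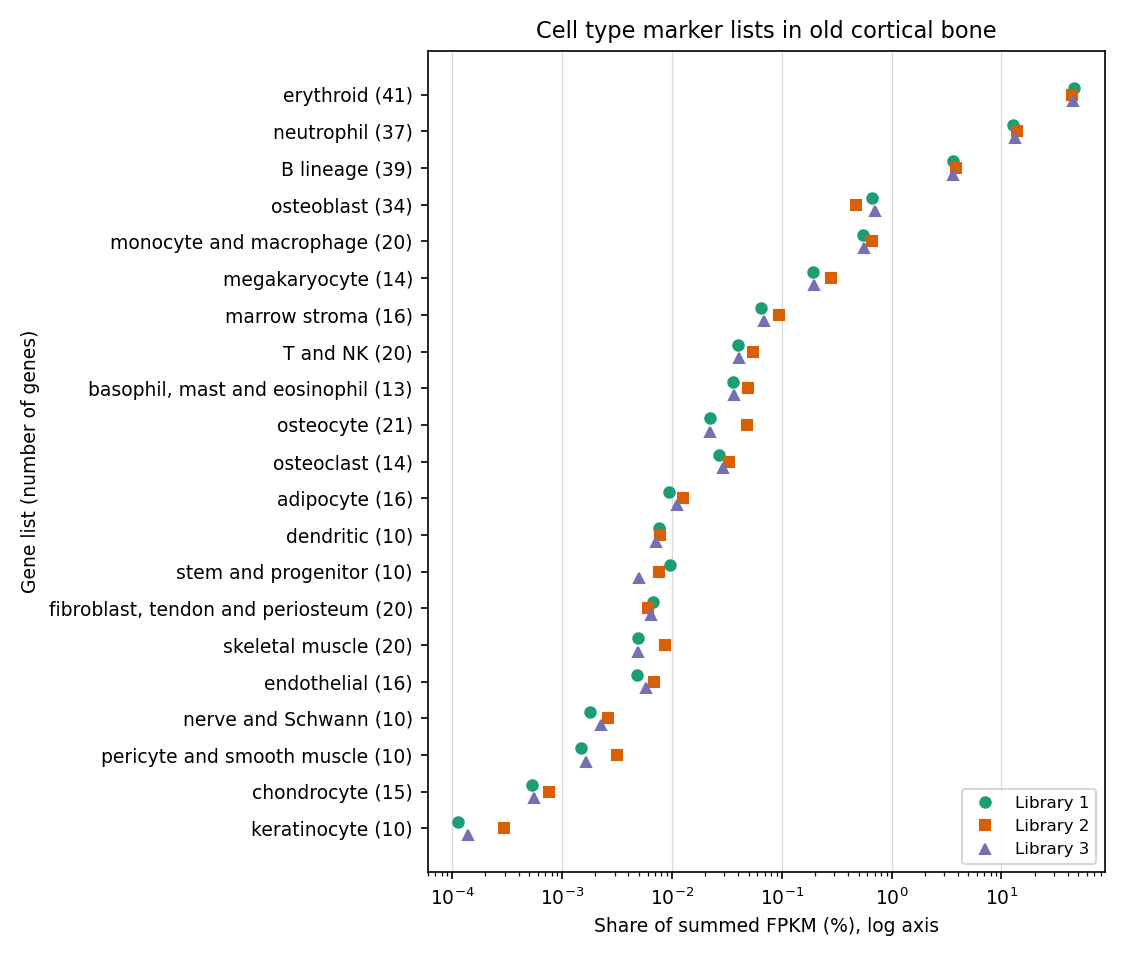
Share of summed FPKM, in percent on a log axis, held by each of 21 cell type marker lists in libraries 1, 2 and 3; the number of genes in each list is in brackets. Erythroid genes hold 44.0% to 45.7%, bone cell lists hold under 1%, and library 2 lies apart for several lists. Among these are the osteoblast list (lower) and the osteocyte, megakaryocyte, skeletal muscle, and pericyte and smooth muscle lists (higher).

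The promoters of 5 of the highest or defining genes are shown because these genes mark the main cell types: an alpha globin and both adult beta globins for red cells, S100a8 for neutrophils and Bglap for osteoblasts. Each is the 250 bases before the start site in RefSeq (GRCm38.p6), 5′ to 3′ on the gene's strand. Capitals mark GATAAG, a letter string bound by GATA factors, and CACCC, a string bound by factors of the Klf family. TATAAA, the TATA box string, is marked as well, and all 3 strings were searched in every promoter. Hba-a1 is at chr11:32283422-32283671 (+), Hbb-bs at chr7:103827929-103828178 (-), Hbb-bt at chr7:103813924-103814173 (-), S100a8 at chr3:90668821-90669070 (+) and Bglap at chr3:88384467-88384716 (-).
Hba-a1: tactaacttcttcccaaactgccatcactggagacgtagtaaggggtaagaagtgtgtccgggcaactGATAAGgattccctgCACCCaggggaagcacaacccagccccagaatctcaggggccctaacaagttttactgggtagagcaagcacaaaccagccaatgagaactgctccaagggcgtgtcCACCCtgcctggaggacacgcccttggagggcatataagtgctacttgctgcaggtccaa
Hbb-bs: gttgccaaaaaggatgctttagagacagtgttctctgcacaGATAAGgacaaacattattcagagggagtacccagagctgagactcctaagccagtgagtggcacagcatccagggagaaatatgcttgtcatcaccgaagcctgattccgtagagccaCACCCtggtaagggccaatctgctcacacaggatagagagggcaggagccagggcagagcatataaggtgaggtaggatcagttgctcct
Hbb-bt: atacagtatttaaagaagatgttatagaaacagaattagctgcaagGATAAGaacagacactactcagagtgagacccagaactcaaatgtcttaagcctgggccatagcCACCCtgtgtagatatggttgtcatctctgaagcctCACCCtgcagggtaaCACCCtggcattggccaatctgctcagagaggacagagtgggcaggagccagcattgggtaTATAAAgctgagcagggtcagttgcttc
S100a8: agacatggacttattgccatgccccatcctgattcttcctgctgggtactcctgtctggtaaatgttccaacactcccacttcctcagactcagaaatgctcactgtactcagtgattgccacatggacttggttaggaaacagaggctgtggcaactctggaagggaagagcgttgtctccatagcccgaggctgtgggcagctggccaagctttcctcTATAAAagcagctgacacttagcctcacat
Bglap: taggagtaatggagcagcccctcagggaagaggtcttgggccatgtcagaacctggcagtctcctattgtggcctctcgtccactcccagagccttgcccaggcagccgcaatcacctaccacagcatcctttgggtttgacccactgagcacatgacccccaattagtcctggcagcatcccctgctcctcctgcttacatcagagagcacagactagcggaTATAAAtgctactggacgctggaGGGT
Both strands were searched, and no marked strings overlap. Matches lay on the gene's own strand but for CACCC in Bglap, whose complement GGGTG begins 4 bases before the start, with its last base beyond the stretch printed. GATAAG stands 182 bases before the start in Hba-a1, 209 in Hbb-bs and 204 in Hbb-bt. CACCC occurs in all of the globin promoters shown, and TATAAA begins 27 bases before the start in Bglap, 28 in Hbb-bt and 30 in S100a8. Hba-a1 and Hbb-bs hold the near match TATAAG close to the start, which was not searched and is not marked. A missing mark therefore does not show that a TATA box is absent. Of 32851 promoters of the same table, in windows of 250 bases before to 50 after the start, 7.44% held GATAAG, 57.5% CACCC and 13.6% TATAAA. A match is a description of these letters and not of a factor's binding. The Hba-a1 and Hba-a2 windows were the same over all 297 aligned bases, with a shift of their start, while those of Hbb-bs and Hbb-bt were the same at 216 of 294 aligned bases (73.5%).

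Red cell genes were the most abundant and among the most even. Hba-a1 and Hba-a2 encode the adult alpha chain of hemoglobin, and Hbb-bs and Hbb-bt the adult beta chain. Hba-a1 read 106213, 102806 and 106897 FPKM, and Hba-a2 read 102354, 98991 and 102880 FPKM. The beta genes Hbb-bs and Hbb-bt read 108269, 99841 and 103505 FPKM and 61705, 54413 and 57996 FPKM. The 4 genes together held 45.3%, 43.6% and 44.2% of summed FPKM, and each of them was lowest in library 2. As deposited, alpha exceeded beta 1.23-fold, 1.31-fold and 1.30-fold. The split between Hba-a1 and Hba-a2 is uncertain, because the annotated transcripts share 493 of 494 bases and the ratio of the 2 genes was nearly fixed, at 1.04 in every library. How fragments shared by both copies were counted is not stated. The alpha sum, its ratio to beta and the share of the 4 genes are therefore uncertain too. Embryonic globins were near 0, with Hba-x at 1.48, 0 and 0 FPKM and Hbb-y at 0, 0 and 0.583 FPKM.

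Without the globins, the other 35 erythroid genes held 0.413%, 0.408% and 0.423% of the sum, and all 35 had a mean of at least 1 FPKM. Of the 9 heme synthesis genes, Alas2, the erythroid enzyme of the pathway's first step, was highest with 244, 255 and 272 FPKM, followed by Alad with 131, 148 and 154 FPKM. Carbonic anhydrase Car2 read 1123, 1124 and 1215 FPKM. These levels lay within 1.2-fold between libraries. The anion exchanger of the red cell membrane, Slc4a1, was lower in library 2, with 134, 88.6 and 128 FPKM. Among regulators, Klf1 read 173, 168 and 154 FPKM and Gata1 34.4, 32.3 and 33.7 FPKM. Nfe2, a subunit of an erythroid and megakaryocytic transcription factor, was the only one of 33 erythroid genes above 10 FPKM to be spread over 2-fold. It read 58.7, 24.5 and 28.7 FPKM, and here library 1 stood alone. Of all genes at that level, 5.41% were spread.

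Neutrophil genes came next, and the precursor stages were well represented. S100a8 and S100a9 encode the subunits of calprotectin, the main cytosolic protein of neutrophils. S100a8 read 35317, 37176 and 37834 FPKM and S100a9 read 31477, 31904 and 32412 FPKM, together 8.0%, 8.46% and 8.37% of the sum. Genes of secondary granules, which are made at the myelocyte stage, held 3.81%, 4.18% and 3.88%. Ngp led them with 14864, 16653 and 14976 FPKM, and Camp, the cathelicidin precursor, followed with 13828, 13881 and 14236 FPKM. Retnlg and other genes of tertiary granules and late stages held 0.576%, 0.549% and 0.593%. None of the 31 neutrophil genes above 10 FPKM was spread over 2-fold, against 5.41% of all genes at that level.

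Primary granule genes, made in the promyelocyte, were all highest in library 2. Elane, neutrophil elastase, read 1687, 2555 and 1638 FPKM. Mpo, myeloperoxidase, read 378, 738 and 406 FPKM, and cathepsin G (Ctsg) 491, 764 and 440 FPKM. All 5 genes of the group had library 2 on top. Their median log2 difference from libraries 1 and 3 was 0.66, against 0.06 over all genes above 1 FPKM. All 5 were above 10 FPKM. At that level the median over all genes was -0.14 for library 1 minus 2 and 0.11 for library 2 minus 3. The group's share was 0.366%, 0.580% and 0.349%, or 0.469% with libraries 1 and 3 as 1. Tertiary granule genes had a median difference of -0.09, with 6 of 13 highest and 7 of 13 lowest in library 2.

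The level of B lineage genes lay mainly in immunoglobulin constant region genes, which B cells and plasma cells both express. Igkc, the kappa constant region, read 26380, 28071 and 26319 FPKM and alone held 3.16%, 3.44% and 3.13% of the sum. Ighm, the constant region of IgM, read 2694, 2304 and 2735 FPKM, while Igha, that of IgA, read 77.7, 164 and 84.1 FPKM. Kappa exceeded the lambda constant genes 59.4-fold, 93.0-fold and 60.2-fold. Of 12 plasma cell and constant region genes above 10 FPKM, 2 were spread over 2-fold, against 5.41% of all genes at that level. Igha was 1 of the 2, and library 2 stood alone in it. Jchain, which joins IgM and IgA chains, was even at 81.5, 91.3 and 91.3 FPKM, and Mzb1, a chaperone of antibody secretion, read 27.0, 34.1 and 29.3 FPKM. Of mature B cell genes, Ly6d read 126, 165 and 138 FPKM and the receptor subunit Cd79a 72.1, 75.4 and 67.5 FPKM. Genes listed for progenitors were low: Vpreb3 read 16.3, 32.3 and 18.4 FPKM, and Rag1 and Rag2, which cut V genes for joining, stayed under 1 FPKM.

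Other blood cells were measured at lower levels. Lyz2, lysozyme of myeloid cells, made up most of the monocyte and macrophage list with 4203, 4886 and 4324 FPKM. Without it the list held 0.0472%, 0.0679% and 0.0449% of the sum. Ly6c2, of inflammatory monocytes, read 171, 217 and 157 FPKM. The complement genes C1qa, C1qb and C1qc of resident macrophages summed to 126, 208 and 120 FPKM. Marco was at 0 in all libraries. In the monocyte and macrophage list 13 of 17 genes above 1 FPKM were highest in library 2, against 44.4% of all genes. Their median log2 difference was 0.37, and the share was 0.611% with libraries 1 and 3 as 1. Megakaryocyte genes were higher in library 2 for 14 of 14 members, with a median difference of 0.68, the whole list reading 0.192%, 0.279% and 0.195%, or 0.236% with libraries 1 and 3 as 1. Pf4, platelet factor 4, read 875, 999.8 and 874 FPKM. Gp9, a subunit of the platelet receptor for von Willebrand factor, read 49.7, 129 and 55.2 FPKM. It was 1 of 3 members, of 9 above 10 FPKM, that were spread over 2-fold. Of all genes at that level, 5.41% were spread.

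Basophil and eosinophil granule genes were present, with Prss34 at 143, 203 and 143 FPKM and Prg2 at 68.9, 89.0 and 64.7 FPKM, while the mast cell protease Mcpt4 was at 0. The T and NK list rested on Nkg7 (253, 379 and 258 FPKM), a granule gene, without which it held 0.00925%, 0.00813% and 0.0103% of the sum. T cell receptor constant region Trbc2 read 13.6, 11.2 and 13.8 FPKM. Among dendritic cell genes, Bst2 and Irf8 led with 41.9, 37.8 and 37.5 FPKM and 15.6, 16.8 and 12.4 FPKM, and both are also made by other marrow cells. Stem and progenitor genes other than Ly6a stayed at or under 2 FPKM, with Kit at 0.759, 0.732 and 0.809 FPKM.

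Osteoblast genes were clear, and their list, led by Bglap and Bglap2, was lower in library 2. The list of 34 genes held 0.661%, 0.472% and 0.702% of the sum, and 0.577% with libraries 1 and 3 as 1. Bglap, osteocalcin, the most abundant noncollagen protein of bone, read 1896, 1231 and 2070 FPKM. Bglap2, the neighbouring copy, read 1890, 1120 and 2120 FPKM. In both genes library 2 was the lowest, and their sum fell from 0.453% and 0.499% of the library to 0.288% in library 2. How fragments divide between them is uncertain, as 434 of 439 aligned transcript bases are the same. The list without Bglap and Bglap2 held 0.208%, 0.184% and 0.203% of the sum, so most of the difference lay in these genes. Col1a1 and Col1a2 encode the 2 chains of type I collagen. Col1a1 read 238, 141 and 242 FPKM and Col1a2 72.4, 52.4 and 71.4 FPKM. Alpl, the alkaline phosphatase that frees phosphate for mineral, read 15.3, 8.11 and 13.2 FPKM. Again library 2 was the lowest for each.

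Other matrix genes changed less between libraries. Sparc, osteonectin, read 648, 535 and 604 FPKM. Ibsp, bone sialoprotein, read 118, 111 and 119 FPKM, and Spp1, osteopontin, 399, 444 and 429 FPKM. Serpinf1 read 71.6, 65.2 and 73.9 FPKM. In Spp1 library 2 was highest as deposited and between the others after median-of-ratios scaling, so it has no stable place. Of 27 osteoblast genes above 1 FPKM, 18 were lowest and 4 highest in library 2, against 31.6% and 44.4% of all genes. The median log2 difference was -0.23, against 0.06 over all genes. None of 12 above 10 FPKM was spread over 2-fold, against 5.41% of all genes at that level. Mineralisation genes other than Alpl were under 7 FPKM, with Phospho1 at 1.40, 1.17 and 1.44 FPKM. The regulators Sp7 (3.16, 3.84 and 2.40 FPKM) and Runx2 (2.14, 2.96 and 2.95 FPKM), which direct osteoblast formation, were low and not lowest in library 2.

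Osteocyte genes went the other way. Mepe, a phosphoglycoprotein of the osteocyte matrix, read 25.0, 148 and 25.9 FPKM, and library 2 was 5.81 times the mean of the others. Dmp1, which osteocytes secrete and which acts on mineral and phosphate, read 11.5, 43.9 and 10.9 FPKM, 3.91 times as high in library 2. Sost encodes sclerostin, the Wnt antagonist by which osteocytes restrain bone formation, and it read 1.82, 7.15 and 0.682 FPKM. Dkk1, another Wnt antagonist, read 2.41, 6.38 and 2.80 FPKM. Library 2 was the highest in each. All 7 secreted and matrix genes of the list above 1 FPKM were highest in library 2, with a median log2 difference of 1.03, and their share with 2 lower genes was 0.00574%, 0.0266% and 0.00531%, or 0.0160% with libraries 1 and 3 as 1. Phex, an endopeptidase acting on phosphate control, and Fgf23, the phosphate hormone, stayed under 0.5 FPKM.

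Over the whole osteocyte list, 12 of 14 genes above 1 FPKM were highest and 1 lowest in library 2, against 44.4% and 31.6% of all genes. Their median log2 difference was 0.67, and the list held 0.0224%, 0.0480% and 0.0220%, or 0.0351% with libraries 1 and 3 as 1. The size of the difference varied by gene, and it was small in some. Gja1, connexin 43 of the gap junctions between osteocytes, read 3.44, 3.56 and 3.35 FPKM, and Tnc read 4.53, 4.45 and 3.97 FPKM. Dstn (87.7, 100.2 and 79.7 FPKM), Capg (32.2, 42.3 and 39.2 FPKM) and Cd44 (7.33, 8.99 and 7.91 FPKM) are also made by blood cells and carried most of the list in libraries 1 and 3. Without these 3 genes the list held 0.00716%, 0.0295% and 0.00685%. The ratio of Mepe to Bglap was 0.0132, 0.120 and 0.0125, and that of Dmp1 to Col1a1 0.0485, 0.311 and 0.0450. Mepe, Dmp1, Ibsp and Spp1 lie within one cluster of genes on chromosome 5, where Dmp1 is at 104202613 to 104214102, Ibsp at 104299171 to 104311469, Mepe at 104325329 to 104338611 and Spp1 at 104435118 to 104441050 (GRCm38). Neighbours in this cluster thus differed in how far library 2 stood out. In library 2 the osteoblast share was lower, and platelet, primary granule, muscle and smooth muscle values higher. The globin share was lowest there too, at 45.3%, 43.6% and 44.2%, but library 3 was nearer to library 2 than to library 1. The part of tissue makeup in these differences was not tested.

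**Figure D4:**
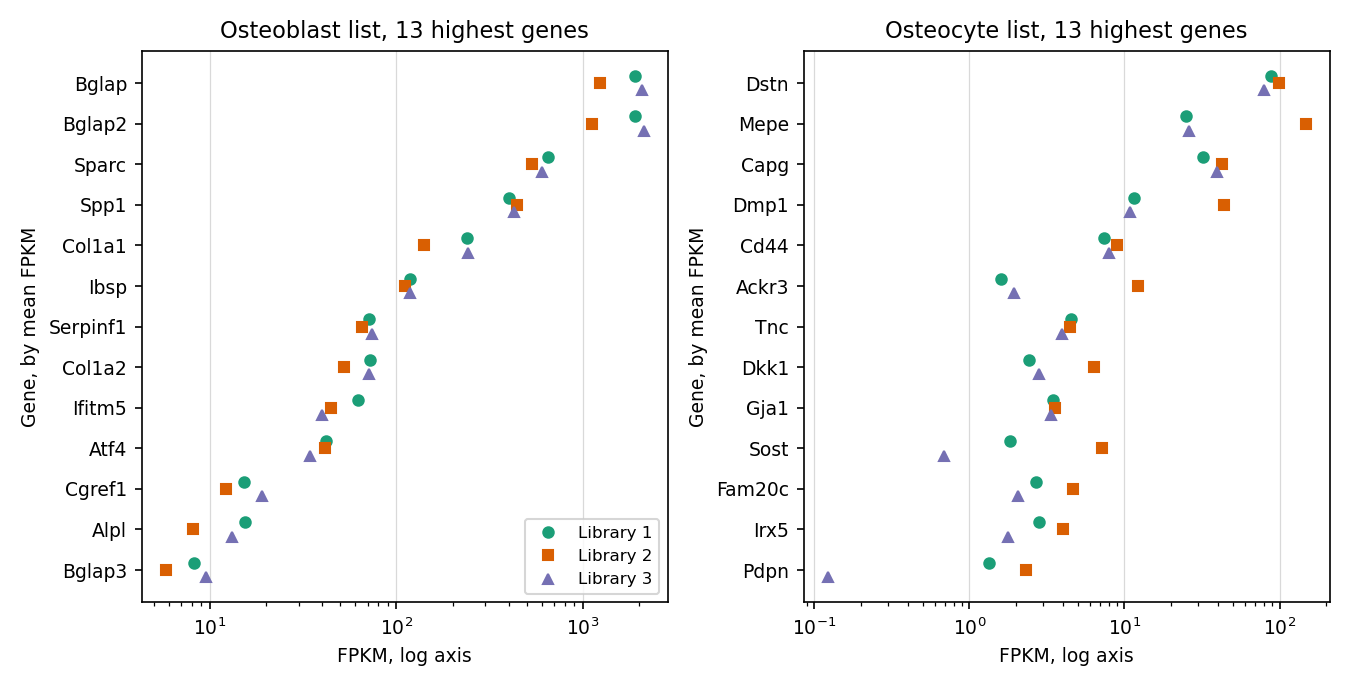
FPKM on a log axis of the 13 highest genes of the osteoblast list (left) and of the osteocyte list (right) in the 3 libraries. Library 2 lies lowest for Bglap, Bglap2, Col1a1, Col1a2 and Alpl and highest for Mepe, Dmp1, Ackr3, Dkk1 and Sost, while Ibsp and Gja1 are nearly level.

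Osteoclast genes were low and steady. Acp5, the tartrate-resistant phosphatase, read 122, 159 and 133 FPKM, and Ctsk, the protease that degrades bone collagen, 71.2, 72.9 and 80.0 FPKM. Tcirg1, a subunit of the proton pump that acidifies the resorption pit, read 10.0, 12.9 and 10.6 FPKM. Of the genes that control osteoclasts, Tnfsf11, the inducing ligand RANKL, was nearly undetected at 0.105, 0 and 0.0981 FPKM. Its decoy receptor Tnfrsf11b read 0.596, 1.89 and 0.921 FPKM and the growth factor Csf1 1.64, 1.97 and 2.02 FPKM. Among Wnt antagonists outside the osteocyte list, Wif1 was the highest with 11.2, 12.9 and 12.2 FPKM, while Dkk2 was at 0.

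Marrow stroma and surrounding tissues gave small shares. Cxcl12, the chemokine that holds stem cells in marrow, read 16.5, 19.6 and 19.2 FPKM, and Adipoq 10.4, 13.9 and 12.7 FPKM. Hp, haptoglobin, made up most of the stroma list (471, 690 and 503 FPKM), and without it the list held 0.00784%, 0.0105% and 0.00867%. Fat cell genes were weak: Fabp4 read 23.6, 31.2 and 21.6 FPKM, Plin1 stayed under 0.04 FPKM, and Lep, Plin4 and Cidea were at 0. Muscle genes were highest in library 2 for 8 of 9 members above 1 FPKM, against 44.4% of all genes. Among them was Tpm2 with 9.93, 21 and 11.6 FPKM. The muscle list held 0.00485%, 0.00864% and 0.00488%, or 0.00675% with libraries 1 and 3 as 1. Acta2 of smooth muscle read 2.96, 10.7 and 4.05 FPKM. Dcn and Lum, small matrix proteoglycans of fibroblasts, read 24.2, 20.8 and 24.3 FPKM and 17.7, 11.4 and 17.1 FPKM. Cldn5, a tight junction gene of vessels, led the endothelial list with 11.2, 19.1 and 19.7 FPKM, and Mbp of myelin read 2.98, 3.27 and 2.40 FPKM. Cartilage genes were close to absent, as Col2a1 read 2.31, 2.51 and 2.10 FPKM and Col10a1, Matn1, Hapln1, Ucma and Epyc were at 0. The skin keratins Krt14 and Krt15 were at 0.

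Of the pathways, mitochondrial energy genes held the largest share. The 13 messenger RNAs of the mitochondrial genome held 3.12%, 3.21% and 3.60% of the sum, 3.31% ± 0.256 (SD, n = 3). The highest were mt-Atp8 with 6099, 5761 and 6437 FPKM and mt-Co3 with 5002, 3960 and 4726 FPKM. In mt-Atp6, library 1 stood alone with 1163 FPKM against 4551 and 5283 FPKM. Gm10925, a nuclear copy of it, read 5873, 5156 and 6072 FPKM, and the 678 aligned bases of both transcripts are the same. The ratio of mt-Atp6 to Gm10925 was therefore 0.198, 0.883 and 0.870. For mt-Co3, mt-Co2 and mt-Nd4l, the copies Gm28437, Gm28661 and Gm10222 had all aligned bases in common and ratios of 0.999, 0.997 and 0.998 on average. Levels of these 4 mitochondrial genes and their copies cannot be told apart. The sum of mt-Atp6 and Gm10925 was 7036, 9707 and 11355 FPKM, so library 1 was the lowest in the sum too. These copies and Gm29216 held 1.94%, 1.70% and 1.92% of summed FPKM beside the mitochondrial list. Without mt-Atp6 the list held 2.98%, 2.65% and 2.98%, so library 2 was then the lowest. Of the 13 genes 12 were lowest in library 2, against 31.6% of all genes.

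Nuclear genes of oxidative phosphorylation held 1.12% ± 0.0411 (SD, n = 3), and all 76 had a mean of at least 1 FPKM with none spread over 2-fold. Of all genes with a mean of at least 10 FPKM, 5.41% were spread. Cox6a1 of complex IV read 883, 940 and 965 FPKM and Uqcr10 of complex III 396, 407 and 386 FPKM. Atp5h, a stalk subunit of ATP synthase, read 185, 186 and 195 FPKM, and Atpif1, the inhibitor of that enzyme, 684, 577 and 780 FPKM. Genes of mitochondrial dynamics and quality control were far lower, 0.0666% ± 0.00509. Fis1, a receptor for the fission machinery, read 132, 138 and 122 FPKM, while the fission enzyme Dnm1l read 4.68, 5.42 and 7.0 FPKM and the fusion genes Mfn1, Mfn2 and Opa1 stayed under 3 FPKM. Bnip3l, the mitophagy receptor by which maturing red cells clear mitochondria, read 51.0, 42.5 and 52.2 FPKM, and the mitophagy kinase gene Pink1 29.2, 21.6 and 32.1 FPKM. Ppargc1a, a driver of mitochondrial biogenesis, stayed under 0.04 FPKM. Of the transport adaptors, Trak2 read 7.39, 5.99 and 6.72 FPKM and Rhot1 0.962, 1.31 and 1.01 FPKM.

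**Figure D5:**
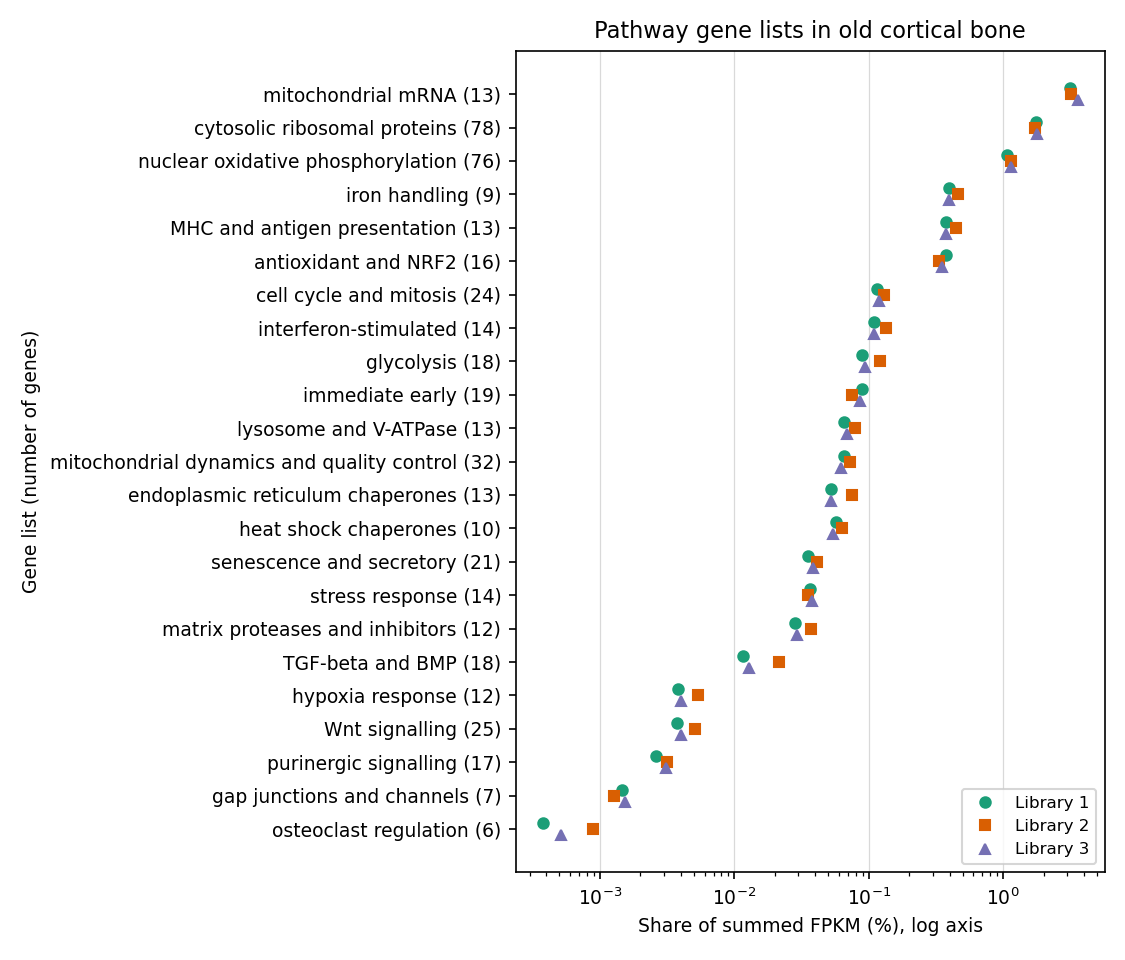
Share of summed FPKM, in percent on a log axis, held by each of 23 pathway lists in libraries 1, 2 and 3; the number of genes in each list is in brackets. Mitochondrial mRNA (3.31% on average), ribosomal proteins (1.76%) and nuclear oxidative phosphorylation genes (1.12%) come first, and osteoclast regulators last.

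Ribosomal protein genes were even. The 78 cytosolic ribosomal protein genes held 1.76% ± 0.0314 (SD, n = 3), led by Rplp1 with 1034, 806 and 1015 FPKM. None was spread over 2-fold, against 5.41% of all genes with a mean of at least 10 FPKM. Cell cycle genes, all 24 above 1 FPKM on average, included Stmn1 (135, 153 and 119 FPKM) and Ube2c (112, 125 and 112 FPKM), and the list held 0.114%, 0.131% and 0.118%. Of cell cycle genes 15 of 24 were highest in library 2, against 44.4% of all genes. Their median log2 difference was 0.14, against 0.06 over all genes above 1 FPKM. Of the 24 genes 20 had a mean of at least 10 FPKM. The difference was near the shift of library 2 among all genes at that level. Iron storage was high through Ftl1 (2818, 3284 and 2885 FPKM), the ferritin light chain. Gpx1, an antioxidant selenoenzyme, read 2165, 1777 and 1941 FPKM, and Prdx2, a peroxiredoxin of red cells, 233, 204 and 222 FPKM. B2m, the shared chain of MHC class I, read 1481, 1871 and 1533 FPKM, and Cd74, the class II chaperone, 708, 679 and 629 FPKM. Ifitm3 (786, 977 and 768 FPKM) made up most of the interferon list, and without it the list held 0.0160%, 0.0146% and 0.0176%.

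The other genes among the 30 highest are found in many cell types. Tmsb4x, an actin-binding peptide, read 6033, 7185 and 5991 FPKM, Actb, cytoplasmic actin, 1427, 2029 and 1306 FPKM and Ubb, ubiquitin, 1615, 1919 and 1569 FPKM. In these 3 genes library 2 was the highest, up to 1.55-fold above the lowest in Actb. The nuclear RNA Malat1 read 2200, 1808 and 2154 FPKM. The 7S RNA genes Rn7s1 and Rn7s2 read 1799, 1867 and 1817 FPKM and 1514, 1867 and 1529 FPKM. Histone H2A genes Hist1h2ap (2703, 2508 and 3171 FPKM) and Hist1h2ao (2412, 2247 and 2813 FPKM) belong to a family of close copies, so their split is uncertain.

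Glycolysis and endoplasmic reticulum chaperone genes were higher in library 2. Gapdh read 123, 167 and 120 FPKM and Ldha, lactate dehydrogenase, 111, 151 and 111 FPKM. Of 18 glycolysis genes 15 were highest in library 2, against 44.4% of all genes. The median log2 difference of the list was 0.26, and it held 0.106% with libraries 1 and 3 as 1. The chaperone Hspa5 read 41.3, 64.6 and 39.2 FPKM and Pdia3 54.5, 89.7 and 43.5 FPKM, with 10 of 12 list members above 1 FPKM highest in library 2, a median of 0.45 and a share of 0.0638% with libraries 1 and 3 as 1. Lysosome genes, with 7 of 13 highest in library 2 and a median of 0.13, were nearer to the 44.4% and 0.06 of all genes, and Lamp1 read 55.7, 79.9 and 56.0 FPKM.

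Stress and early response genes differed by gene. Fos, an immediate early transcription factor, was even at 120, 130 and 109 FPKM, while Jun read 58.1, 24.5 and 56.7 FPKM and Jund 85.8, 37.5 and 71.2 FPKM. Klf2 read 32.6, 15.9 and 35.2 FPKM. In these 3 genes library 2 was the lowest. They were the 3 of 13 early genes above 10 FPKM spread over 2-fold, against 5.41% of all genes at that level. Of 18 early genes above 1 FPKM, 9 were lowest and 8 highest in library 2, against 31.6% and 44.4% of all genes. The inducible heat shock genes Hspa1a (15.3, 6.02 and 15.7 FPKM) and Hspa1b (8.76, 2.01 and 6.85 FPKM) were also lowest there, and the constitutive Hsp90ab1 (175, 209 and 164 FPKM) was not. Cebpb led the stress list with 190, 150 and 174 FPKM, and Ddit3 (CHOP) read 19.0, 24.0 and 28.4 FPKM.

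Genes tied to cell ageing were mixed. Cdkn2a, the p16 and p19 locus used as a mark of senescence, was at 0 in all libraries, and Cdkn2b stayed under 1 FPKM. Cdkn1a, which encodes the cell cycle inhibitor p21, read 15, 36.0 and 13.2 FPKM, and Cdkn2d 96.9, 141 and 115 FPKM. Of the secreted factors of senescent cells, Il1b read 70.0, 42.7 and 68.0 FPKM and Cxcl2 25.8, 15 and 28.7 FPKM. Library 2 was highest for Cdkn1a and lowest for Il1b and Cxcl2, and both of these factors are also made by neutrophils. Igfbp4 read 16.3, 21.1 and 13.7 FPKM. Of TGF-beta and BMP genes, Id1, a BMP target, read 16.0, 53.9 and 20.4 FPKM, and Id3 43.6, 66.0 and 46.4 FPKM.

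Genes of ATP release and sensing and of oxygen sensing were low. The platelet ATP receptor P2rx1 was the highest purinergic receptor with 5.97, 10.4 and 8.72 FPKM, followed by P2ry1 with 2.09, 3.76 and 2.03 FPKM, and P2ry2 stayed under 1 FPKM. Slc17a9, the vesicular nucleotide transporter, read 3.86, 3.28 and 5.54 FPKM, and the mechanosensitive channel Piezo1 4.85, 2.85 and 3.69 FPKM. Hypoxia genes were each under 11 FPKM, with Ndrg1 at 4.62, 10.8 and 5.35 FPKM. Of matrix proteases and inhibitors, Ctsd read 100.4, 138 and 109 FPKM and Timp1 25.6, 20.9 and 17.2 FPKM.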

How the data were processed

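The authors deposited FPKM values per gene for 3 libraries of poly(A)-selected RNA, in 1 table of 55335 rows. HTSeq and mm10 are named, with no role, per the submitters' processing notes; how FPKM were computed is not stated in the sources used here. GENCODE M21 (GRCm38) matched 55154 gene IDs and gave positions and biotypes. FPKM are not counts: 24.1% to 25.0% of low values were whole fragments within 0.1, where even spread gives 20%, so depth is unknown and no count test was run. With 1 group no test was made. Levels are FPKM as deposited, shares are percent of summed FPKM, and means carry the SD over 3 libraries. A gene was called spread where the highest library was over 2 times the lowest on FPKM + 1 (a pseudocount of 1), among genes with a mean of at least 10 FPKM.

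The members and the 44 gene lists (886 of 894 genes found) were chosen with earlier results of these data known. Named genes were drawn from the 30 highest, the 5 highest members and absent markers of each list and the 20 most spread; some genes of this rule are not reported here, and other named genes were picked after their values were seen. Other denominators, thresholds, pseudocounts and scalings and leaving out each library were tried; averaging libraries 1 and 3 and leaving out V genes were added after seeing the data. Promoters came from RefSeq, and transcripts from GENCODE were aligned with Biopython 1.88. Python 3.11.15, pandas 2.3.3, numpy 2.4.6 and matplotlib 3.10.9 were used.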

Additional observations from a re-analysis of the deposited data

How the results depend on the processing

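No paired analysis was possible because the table holds 1 group. Shares move with the denominator. Without mitochondrial genes the erythroid share was 46.6%, the neutrophil share 13.8% and the ribosomal protein share 1.83%. Without small structural RNA genes the erythroid share was 48.1%, neutrophil 14.2%, B lineage 3.96% and ribosomal protein 1.89%. Without globin genes the erythroid share was 0.746%, neutrophil 23.8%, B lineage 6.62%, osteoblast 1.10%, osteocyte 0.0551%, osteoclast 0.0534%, mitochondrial mRNA 5.96% and ribosomal protein 3.17%. At a threshold of 0.1 FPKM 14793 genes were detected in all 3 libraries, and at 5 FPKM 4004. The 156 spread genes became 1327 with no filter on the mean, 794 at a mean of at least 1 FPKM and 102 without immunoglobulin V genes. Leaving out 1 library gave from 21 (without library 2) to 130 spread genes. Depth is unknown, so values under 1 FPKM may rest on few fragments. With 3 libraries, of which 2 are alike, an SD is a rough measure of spread.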

Other observations

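Some rows outside the lists were high or uneven. Gm23935, CT010467.1 (annotated as rRNA) and Gm26917 held 6.22%, 3.58% and 5.62% of summed FPKM in libraries 1, 2 and 3, and the mitochondrial rRNA genes mt-Rnr1 and mt-Rnr2 held 0.637%, 0.397% and 0.599%. The predicted genes Gm10800, Gm10801, Gm10718 and Gm21738 held 0.0226%, 0.137% and 0.0170%, so library 2 was 8.06 times the lowest library. Slpi, a protease inhibitor gene of neutrophils and epithelia, read 680, 1398 and 616 FPKM. Hcar2, the receptor for niacin and ketone bodies, read 34.3, 9.49 and 36.9 FPKM. Tubb1, the tubulin of platelets, read 9.74, 25.0 and 7.82 FPKM, with library 2 highest as in the megakaryocyte list. A pair of short predicted genes swung between near 0 and over 1000 FPKM: Gm22133 read 0.0970, 5083 and 2409 FPKM and AC157822.1 read 1076, 0.0748 and 1085 FPKM. Gm22133 lies within Ftl1 and AC157822.1 overlaps Rn7s2, each on the same strand. How fragments shared by overlapping genes were counted is not stated, so the levels of this pair are uncertain. Xist, expressed from the inactive X chromosome, read 0.00606, 0.00110 and 0.00315 FPKM, and Y-linked Eif2s3y 7.70, 6.79 and 9.76 FPKM, so the 3 libraries did not differ in this respect. These genes were chosen after their values were seen.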
